A study of Arabidopsis thaliana with 18 samples.

Results

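The 9 genes below, which hydroxylate, glucosylate or methylate salicylic acid or act on methyl salicylate, were followed through rosettes of 7 groups of Arabidopsis thaliana. They were chosen by identifier, 9 of 37336 gene rows. They are the hydroxylase DLO1 (AT4G10500), its neighbour DLO2 (AT4G10490), the hydroxylase DMR6 (AT5G24530), the glucosyltransferases UGT74F1 (AT2G43840), UGT74F2 (AT2G43820), UGT76B1 (AT3G11340) and UGT71C3 (AT1G07260), the methyltransferase BSMT1 (AT3G11480) and the methyl esterase MES9 (AT4G37150).

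Salicylic acid is a plant hormone of defence and leaf ageing, and the level of its active free form depends on its removal as well as its synthesis. DLO1 hydroxylates it at the 3 position and DMR6 at the 5 position of the ring, glucosyltransferases turn it into stored or inactive sugar conjugates, BSMT1 turns it into volatile methyl salicylate, and methyl esterases such as MES9 release the free acid again. NahG is a bacterial salicylate hydroxylase that converts salicylic acid to catechol, so plants that carry it hold little of the hormone.

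Rosettes were frozen 21 days after sowing, from plants moved to soil at day 14 and grown under 16 h light and 8 h dark at 21 °C, and each library was a pool of 6 to 10 plants. A first stage of sequencing held 3 libraries each of wild-type C24, wild-type Ler (labelled Ler-0), Ler NahG and the hybrid C24 x Ler. A later stage held 2 libraries each of C24B, wild-type C24 that served as the control of that stage, and of the independent transgenic lines C24 NahG 2 and C24 NahG 3. The promoter that drives NahG, the number of Ler NahG lines and the parent that served as mother of the hybrid are not given in the sources used here. Every contrast between groups was made within 1 stage, and levels of different stages are set side by side with no test. The only test that spans the stages set the NahG effect in C24 against that in Ler, each effect taken within its own stage.

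The first-stage libraries held 22446656 to 25706088 reads in genes and the later ones 28132721 to 32465711, so that 3 reads, the floor used here, equal 0.108 to 0.153 and 0.0922 to 0.117 CPM (counts scaled to a common library size) in 1 library. PR1, a defence gene that salicylic acid induces, served as a check of the labels. It lay at 738 to 1090 CPM in C24B and at 0.308 to 0.522 CPM in the 4 libraries of the C24 NahG lines, and at 3.25 to 28.4 CPM in Ler against 0.989 to 1.77 in Ler NahG. The fall in Ler NahG did not pass the test (log2 change -3.28, adjusted p = 0.09, edgeR's quasi-likelihood test). All 4 leaf markers were abundant in every library, with summed levels of 20800 to 41100 CPM. Ler and Ler NahG also carried RNA of floral organs, by a list of 7 genes (AP1, AP3, PI, AG, SEP1, SEP2 and SEP3) that was added after levels in the libraries had been seen. The 7 summed to 91.8 to 158 CPM in Ler and 76.7 to 131 in Ler NahG, against 2.13 to 10.4 CPM in the other 5 groups. Summed levels of the 8 shoot apex markers ran from 0.613 to 2.54 CPM in the hybrid, where LFY had 0 reads, from 41.0 to 44.4 in C24 and from 20.9 to 116 in the Ler groups. C24B replicate 1 was at 3.08 CPM and C24B replicate 2 at 45.7. C24 NahG 3 replicate 2 had the highest share of unmapped reads, 10.3%.

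The promoters of 6 members, picked after the results were seen, are shown because these genes rose or fell by very different amounts between the same plants. Each is the 250 bases before the gene's annotated start in the reference accession Columbia, not in C24 or Ler, read 5′ to 3′ on the gene's strand from the RefSeq assembly TAIR10.1. They lie at chr4:6490767-6491016 (plus strand) for DLO1, chr5:8378509-8378758 (plus strand) for DMR6, chr3:3556304-3556553 (plus strand) for UGT76B1, chr2:18151828-18152077 (plus strand) for UGT74F2, chr3:3614171-3614420 (plus strand) for BSMT1 and chr4:17494280-17494529 (minus strand) for MES9. Capitals mark TTGAC, the core bound by WRKY factors, and TGACG, the core bound by TGA factors, on either strand.
DLO1: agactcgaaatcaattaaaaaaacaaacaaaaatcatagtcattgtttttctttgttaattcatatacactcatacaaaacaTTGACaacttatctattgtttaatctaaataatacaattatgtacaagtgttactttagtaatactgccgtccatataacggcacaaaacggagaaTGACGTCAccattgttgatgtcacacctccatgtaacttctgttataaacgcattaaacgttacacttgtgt
DMR6: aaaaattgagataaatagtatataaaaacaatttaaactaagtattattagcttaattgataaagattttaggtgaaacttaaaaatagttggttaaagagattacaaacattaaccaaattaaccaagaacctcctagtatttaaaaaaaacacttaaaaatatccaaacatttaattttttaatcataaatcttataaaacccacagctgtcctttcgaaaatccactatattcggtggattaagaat
UGT76B1: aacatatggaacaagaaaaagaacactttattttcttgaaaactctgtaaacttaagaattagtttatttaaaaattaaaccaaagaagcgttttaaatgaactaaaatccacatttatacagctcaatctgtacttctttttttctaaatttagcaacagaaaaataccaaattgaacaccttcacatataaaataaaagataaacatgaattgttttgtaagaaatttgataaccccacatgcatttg
UGT74F2: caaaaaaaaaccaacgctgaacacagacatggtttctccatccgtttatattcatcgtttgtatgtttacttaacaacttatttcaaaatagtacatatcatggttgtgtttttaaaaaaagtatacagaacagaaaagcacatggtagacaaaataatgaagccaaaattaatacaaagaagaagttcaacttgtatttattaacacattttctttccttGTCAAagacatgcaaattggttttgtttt
BSMT1: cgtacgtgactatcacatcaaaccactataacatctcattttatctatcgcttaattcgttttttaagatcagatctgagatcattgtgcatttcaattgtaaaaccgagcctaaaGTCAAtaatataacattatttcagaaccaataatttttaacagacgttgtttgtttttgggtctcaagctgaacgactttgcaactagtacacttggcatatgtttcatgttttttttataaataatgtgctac
MES9: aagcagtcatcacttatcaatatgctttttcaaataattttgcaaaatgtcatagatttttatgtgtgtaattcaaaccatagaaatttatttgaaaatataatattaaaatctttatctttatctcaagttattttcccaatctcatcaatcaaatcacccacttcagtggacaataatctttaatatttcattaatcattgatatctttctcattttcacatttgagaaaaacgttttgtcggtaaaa
DLO1 held 1 TTGAC and 2 TGACG, the latter on opposite strands and overlapping each other. UGT74F2 and BSMT1 held 1 TTGAC each, and DMR6, UGT76B1 and MES9 held neither motif. The promoters of UGT74F1, UGT71C3 and DLO2, which are not shown, also held neither. Of 27443 promoters of protein-coding genes of the same length, 44.9% held TTGAC and 18.6% held TGACG on either strand. A match of letters is a description of the window and does not show a bound site.

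Several members are neighbours in the genome. DLO2 and DLO1 lie 5656 bases apart on chromosome 4, UGT74F2 and UGT74F1 lie 3620 bases apart on chromosome 2, and UGT76B1 and BSMT1 lie 56059 bases apart on chromosome 3. UGT74F1, UGT74F2, UGT71C3 and BSMT1 overlap genes on the other strand in the annotation, and no source used here gives the strand setting of the counting, so reads of the overlaps cannot be told apart. UGT74F1 and UGT74F2 are close copies, and so are DLO1 and DLO2, which makes the split of reads between them uncertain.

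The members covered a wide range of levels, plotted library by library below. Per length, DMR6 was the highest member in C24, at 141 ± 4.03 RPKM (CPM per kilobase of exon, SD, n = 3), followed by DLO1 at 40.6 ± 3.26, MES9 at 23.1 ± 2.77 and UGT76B1 at 8.60 ± 2.62 RPKM. In Ler the highest were UGT74F2 at 9.27 ± 4.96 RPKM and DMR6 at 9.08 ± 5.58, whose libraries overlap in level. DLO2 was nearly unread, with 1, 1 and 0 reads in the C24 libraries, 1 read in C24 NahG 2 replicate 2 and 0 in all others. It did not pass the filter on low counts, so 8 of the 9 members were tested in each comparison.

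**Figure D1:**
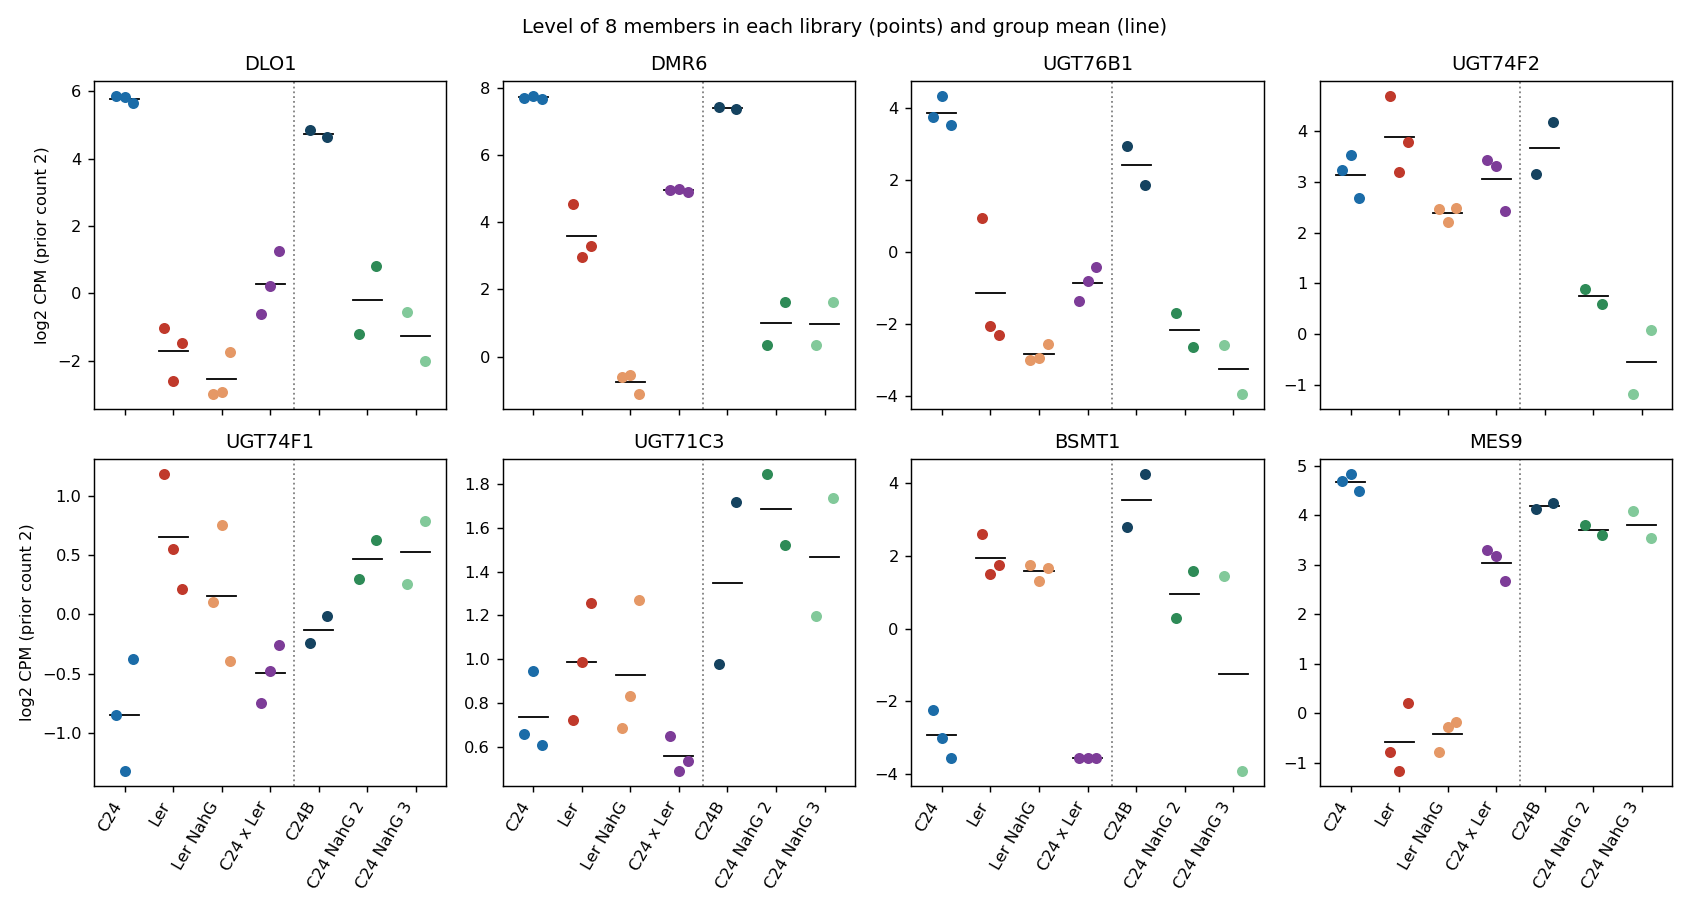
Level of each of the 8 tested members as log2 CPM (prior count 2), with 1 point for each library and a line at the group mean, and the 2 sequencing stages separated by the dotted line. DLO1, DMR6 and UGT76B1 stand high in C24 and C24B and low in every NahG library, MES9 stands high in every C24 background, and BSMT1 is near its floor in C24 and the hybrid.

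The C24 NahG lines ask what the members do when salicylic acid is degraded in C24. Both hydroxylase genes and 2 of the glucosyltransferase genes, UGT76B1 and UGT74F2, fell in both lines, whereas UGT74F1, UGT71C3, BSMT1 and MES9 did not pass the test in either. In each line 4 of 8 tested members fell and 0 rose, where 7.1% of all 20112 genes tested fell and 1.11% rose in C24 NahG 2 (8.21% in all), and 8.16% fell and 2.09% rose in C24 NahG 3 (10.3% in all). DESeq2 called the same number of members, with 560 genes higher and 1751 lower in C24 NahG 2 and 908 and 2068 in C24 NahG 3, against 224 and 1427 and 420 and 1642 with edgeR. The median log2 change over the tested members was -2.86 in C24 NahG 2 and -3.80 in C24 NahG 3, beside medians of 0.00 and -0.01 over all genes. Both lines were compared with the same C24B libraries. Because whole rosettes were pooled, fewer cells that express a gene and less RNA of it per cell cannot be told apart.

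DMR6, the salicylic acid 5-hydroxylase, was at 171 and 163 CPM in the C24B libraries, at 1.20 and 3.03 in C24 NahG 2 and at 1.20 and 3.01 in C24 NahG 3. Every NahG library lay far below both controls. The log2 change of DMR6 was -6.31 ± 0.47 (SE, edgeR's quasi-likelihood test, adjusted p = 0.00025) in C24 NahG 2 and -6.29 ± 0.47 (adjusted p = 0.00021) in C24 NahG 3.

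DLO1, the salicylic acid 3-hydroxylase, was at 28.6 and 25.1 CPM in C24B, at 0.369 and 1.68 in C24 NahG 2 and at 0.617 and 0.185 in C24 NahG 3. The groups did not overlap, and the lines overlapped each other. DLO1 fell by 4.72 ± 0.56 on the log2 scale in C24 NahG 2 (edgeR's quasi-likelihood test, adjusted p = 0.0022) and by 6.08 ± 0.63 in C24 NahG 3 (adjusted p = 0.001).

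UGT76B1 glucosylates salicylic acid, isoleucic acid and N-hydroxypipecolic acid. Its level was 7.59 and 3.57 CPM in C24B, 0.246 and 0.0967 in C24 NahG 2, and 0.103 and 0 in C24 NahG 3. Its log2 change was -4.98 ± 0.72 in C24 NahG 2 (edgeR's quasi-likelihood test, adjusted p = 0.0054), a call that ended without C24 NahG 2 replicate 2 (adjusted p = 0.075). In C24 NahG 3 the gene had 3 reads against 307 in C24B, a ratio of 111 with an exact 95% counting interval of 37.5 to 540 (adjusted p = 0.0027, same test).

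UGT74F2, which makes the glucose ester of salicylic acid, was at 8.87 and 18.1 CPM in C24B, at 1.78 and 1.45 in C24 NahG 2 and at 0.377 and 0.984 in C24 NahG 3. The 3 groups did not overlap. It fell by 3.06 ± 0.45 on the log2 scale in C24 NahG 2 (edgeR's quasi-likelihood test, adjusted p = 0.0061) and by 4.29 ± 0.50 in C24 NahG 3 (adjusted p = 0.0017). The call in C24 NahG 2 ended without either of its own libraries (adjusted p = 0.063 and 0.084). UGT74F1, the neighbouring copy that makes the glucoside, was at 0.778 and 0.925 CPM in C24B, 1.17 and 1.48 in C24 NahG 2, and 1.13 and 1.66 in C24 NahG 3. Its log2 changes of 0.63 ± 0.41 and 0.71 ± 0.41 did not pass (adjusted p = 0.40 and 0.29, edgeR's quasi-likelihood test). Both lines lay above the same controls. With 2 libraries a group such separation is frequent, and its share over all genes was not counted. With the reads of both copies summed into 1 row, that row fell in both lines (log2 change -2.29 and -2.78, adjusted p = 0.0096 and 0.004).

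BSMT1, the methyltransferase, was at 6.89 and 19.1 CPM in C24B, at 1.17 and 2.93 in C24 NahG 2 and at 2.67 and 0 in C24 NahG 3. Both lines lay below both controls, and the controls differed widely from each other. The log2 changes were -2.67 ± 1.09 and -3.31 ± 1.14 (adjusted p = 0.20 and 0.11, edgeR's quasi-likelihood test). With no filter on low counts both passed (adjusted p = 0.021 and 0.0053). Without C24B replicate 1, low in apex markers and the lower control for this gene, the log2 changes were -3.20 and -3.84. That fit rests on the control at 19.1 CPM alone. Over the alternatives the smallest changes were -1.745 in C24 NahG 2 and -2.258 in C24 NahG 3. Leaving out C24 NahG 3 replicate 1 leaves that line with a library of 0 reads, so its fold is not given.

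MES9, which hydrolyses methyl salicylate, was at 17.4 and 19.0 CPM in C24B, 13.8 and 12 in C24 NahG 2, and 17.0 and 11.5 in C24 NahG 3. The NahG libraries were all lower than both controls, by log2 changes of -0.50 ± 0.20 and -0.36 ± 0.20 that did not pass (adjusted p = 0.19 and 0.28, edgeR's quasi-likelihood test). UGT71C3, which glucosylates methyl salicylate, was at 1.91 and 3.22 CPM in C24B, within 2.23 to 3.53 CPM in the NahG libraries, and did not pass in any of the 9 comparisons.

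Between the lines, C24 NahG 3 against C24 NahG 2, 0 of 8 members and 0% of all genes were called with edgeR's quasi-likelihood test. At an unadjusted p under 0.05 there were 590 genes, 1 of them a member, UGT74F2 (log2 difference -1.23 ± 0.52). DESeq2 called 13 genes and 0 members between the lines. Without C24 NahG 3 replicate 2, the library with the most unmapped reads, the same 4 members were called in that line, with adjusted p from 0.0058 to 0.035. None of the 7 floral or 6 tested apex markers was called in either line. Their median log2 changes were above 0, however. In C24 NahG 2 and C24 NahG 3 they were 1.16 and 0.62 for the floral markers and 1.18 and 1.31 for the apex markers. The 2 C24B libraries differed widely in apex markers, so the lack of calls does not show equal tissue. The part of these markers in the members' results was not tested.

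In Ler, 1 of 8 tested members was lower with NahG, DMR6, and 0 were higher, where 0.502% of 20325 genes tested fell and 0.0886% rose (0.59% in all). DESeq2 called 3 members, with 70 genes higher and 208 lower in all, against 18 and 102 with edgeR. DMR6 was at 22.9, 7.74 and 9.64 CPM in Ler and at 0.577, 0.596 and 0.38 in Ler NahG. The groups did not overlap, and Ler replicate 1 was the highest, as it was for PR1 (28.4 CPM) and for the floral organ sum (158 CPM), whose part in this result was not tested. The log2 change was -4.68 ± 0.44 (edgeR's quasi-likelihood test, adjusted p = 0.00029), and -4.06 without Ler replicate 1 (adjusted p = 4.5e-07).

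UGT74F2 was at 25.8, 9.04 and 13.7 CPM in Ler and at 5.40, 4.54 and 5.49 in Ler NahG, with no overlap. Its log2 change of -1.65 ± 0.37 missed the threshold in edgeR's quasi-likelihood test (adjusted p = 0.10). It passed with DESeq2 (adjusted p = 0.0014), without TMM scaling (0.042) and without Ler replicate 2 (0.032).

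UGT76B1 had 41, 4 and 3 reads in the Ler libraries and 1, 1 and 2 in Ler NahG. Ler replicate 1 held most of them. The log2 change was -3.45 ± 1.16 (adjusted p = 0.40, edgeR's quasi-likelihood test) and -1.20 without that library, and DESeq2 called the gene with all libraries (adjusted p = 0.034). DLO1 was close to the floor in both groups, with 9, 2 and 7 reads in Ler and 1, 1 and 5 in Ler NahG (log2 change -1.26 ± 0.93, adjusted p = 0.79).

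The remaining members gave log2 changes in Ler NahG of -0.51 for UGT74F1, -0.06 for UGT71C3, -0.45 for BSMT1 and 0.07 for MES9, with adjusted p of 0.80 to 0.99. The median change over the 8 tested members was -0.88, beside 0.00 over all genes. Floral and apex markers were not called between Ler NahG and Ler, at 0 of 7 and 0 of 6 tested, with median log2 changes of -0.36 and -0.31.

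**Figure D2:**
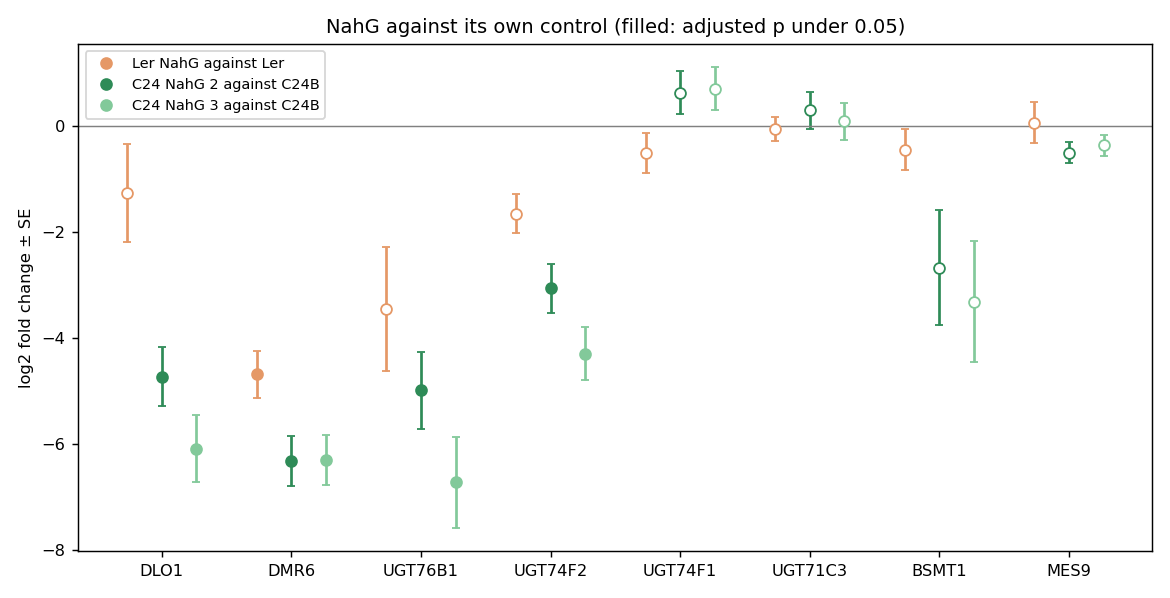
Log2 fold change ± SE of each tested member in Ler NahG against Ler and in each C24 NahG line against C24B, filled where the adjusted p is under 0.05. DMR6 is filled in all 3 comparisons, DLO1, UGT76B1 and UGT74F2 only in the C24 lines, and MES9, UGT71C3 and UGT74F1 lie within 0.71 of 0.

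Whether NahG acted differently in the accessions was tested as the difference of the effects, each within its own stage. Of 8 members 1 was called, UGT74F2, with a lower value in C24, where 8.8% of 21061 genes were called, 6.78% lower and 2.03% higher. DESeq2 called 2 members, with 1154 genes higher and 1710 lower in all, against 427 and 1427 with edgeR. Without TMM scaling the adjusted p of UGT74F2 was 0.054, and the median of all genes in this contrast moved by 0.14 to 0.11 on the log2 scale. The NahG effect on UGT74F2 was lower in C24 than in Ler by a log2 difference of -2.01 ± 0.59 (edgeR's quasi-likelihood test, adjusted p = 0.046), and this call ended under 17 of 24 alternatives. With the reads of UGT74F1 and UGT74F2 summed, the difference was -1.02 (adjusted p = 0.22). Accession and sequencing stage cannot be told apart in any of these differences. The differences of -4.13 ± 1.59 for DLO1, -1.61 ± 0.75 for DMR6, -2.36 ± 1.98 for UGT76B1 and -2.53 ± 1.11 for BSMT1 did not pass (adjusted p = 0.12, 0.19, 0.47 and 0.17). Without Ler replicate 1 the differences passed for DMR6 (-2.24, adjusted p = 0.016) and UGT76B1 (-4.62, 0.041), which brought the count of members to 3. AG, a floral organ marker, and CUC2, an apex marker, were also called in this contrast, with log2 differences of 2.16 and 2.54 (adjusted p = 0.032 and 0.022), and the other markers of both lists were not. Their part in the members' values was not tested. A call in C24 with none in Ler does not show that the effects differ.

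Between the parents 6 of 8 tested members differed, where 42.5% of all genes tested did. DLO1, DMR6, UGT76B1 and MES9 were higher in C24 than in Ler, 4 of 8 beside 22.6% of all genes, and UGT74F1 and BSMT1 were lower, 2 of 8 beside 19.8%. The median log2 difference over the members was 1.84, beside -0.01 over all genes.

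DLO1 was at 58.3, 57.1 and 50.1 CPM in C24 and at 0.402, 0.079 and 0.278 in Ler. The difference between the parents was widest for this gene among the members, at 7.77 ± 0.44 on the log2 scale (edgeR's quasi-likelihood test, adjusted p = 1e-07). DMR6 was at 207, 215 and 204 CPM in C24, above Ler by 3.96 ± 0.32 (adjusted p = 1.6e-06, same test). Both genes kept their calls under every alternative tried.

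UGT76B1 was at 13.3, 20.0 and 11.3 CPM in C24 and at 1.83, 0.158 and 0.119 in Ler, a log2 difference of 4.44 ± 0.66 (edgeR's quasi-likelihood test, adjusted p = 0.0002). MES9 was at 25.8, 28.6 and 22.4 CPM in C24 and at 0.492, 0.355 and 1.07 in Ler, a log2 difference of 5.30 ± 0.31 (adjusted p = 1.3e-07). Neither gene's groups overlapped. UGT76B1 stood apart in Ler replicate 1, and without that library its difference was 6.69. MES9 kept this contrast in other plants, at 11.5 to 19.0 CPM in the later C24B and C24 NahG libraries and at 0.494 to 0.802 in Ler NahG, a comparison of levels across stages with no test.

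UGT74F1 was at 0.469, 0.313 and 0.683 CPM in C24 and at 2.19, 1.38 and 1.07 in Ler, with no overlap and a log2 difference of -1.64 ± 0.41 (edgeR's quasi-likelihood test, adjusted p = 0.0065). UGT74F2 ran from 6.36 to 11.4 CPM in C24 and from 9.04 to 25.8 in Ler, overlapped, and missed the threshold (log2 difference -0.84 ± 0.36, adjusted p = 0.079). It passed with DESeq2 (0.046), without Ler replicate 2 (0.020) and as the row with UGT74F1 added (0.046).

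BSMT1 was at 5.95, 2.73 and 3.29 CPM in Ler and had 3, 1 and 0 reads in C24, a log2 difference of -6.11 ± 0.61 (edgeR's quasi-likelihood test, adjusted p = 2.8e-05). BSMT1 is known to be active in flowers, and all 7 floral organ markers were lower in C24 than in Ler, with a median log2 difference of -5.18. The part of floral RNA in this result was not tested. In C24B, of the same accession, BSMT1 was at 6.89 and 19.1 CPM and the floral markers summed to 3.15 and 3.28 CPM. The C24B and C24 plants belong to different stages, and the stage cannot be told apart from any difference between them.

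**Figure D3:**
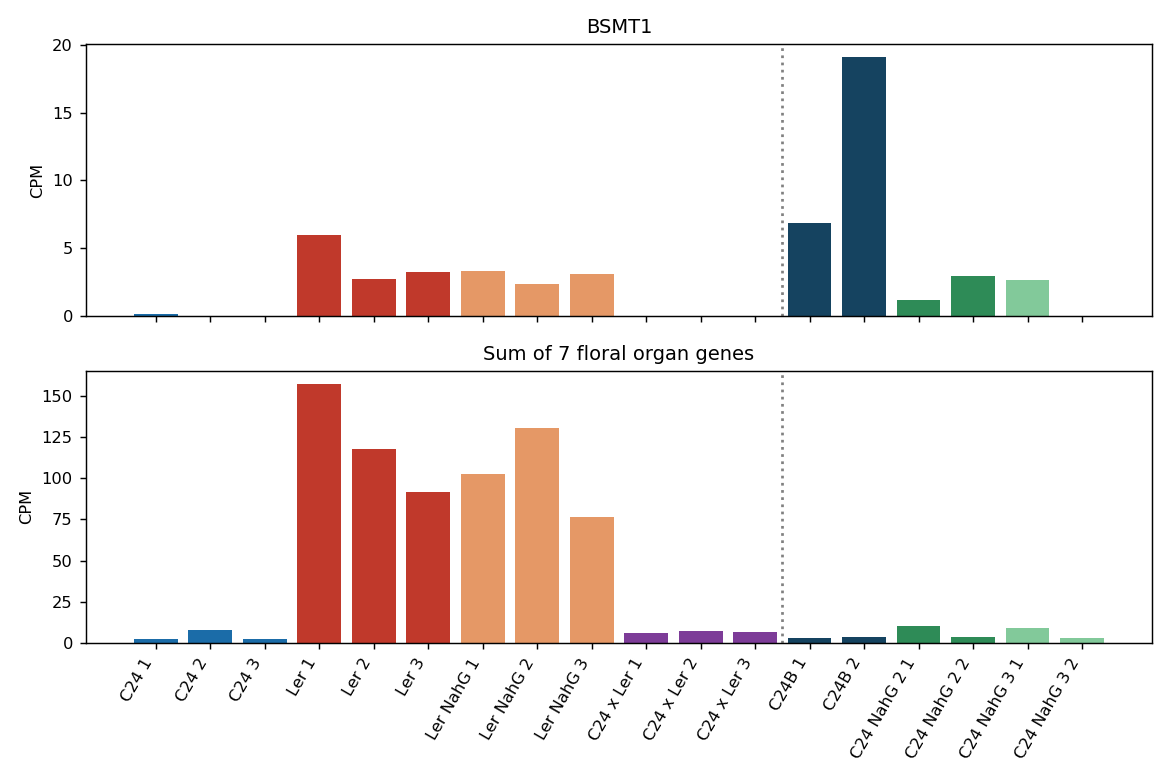
BSMT1 (upper bars) and the sum of 7 floral organ genes (lower bars) in each library, in CPM from 0, with the stages separated by the dotted line. Ler and Ler NahG libraries carry both, C24 and the hybrid carry little of either, and C24B carries BSMT1 at 6.89 and 19.1 CPM with floral sums of 3.15 and 3.28 CPM.

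The hybrid was compared with each parent and with their mean. Against C24, 4 of 8 tested members were lower and 0 higher, where 19.3% of all genes were lower and 17.2% higher (36.6% in all). Without TMM scaling the same count of members was called, while the split of all genes called moved from 3502 higher and 3931 lower to 2040 and 7189. These were DLO1, DMR6, UGT76B1 and MES9, the members that were higher in C24 than in Ler. The comparisons share the C24 libraries.

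DLO1 was at 0.562, 1.07 and 2.30 CPM in the hybrid, below C24 by a log2 change of -5.37 ± 0.36 (edgeR's quasi-likelihood test, adjusted p = 1.7e-06) and above Ler by 2.40 ± 0.57 (adjusted p = 0.0084). DMR6 was at 31.0, 31.5 and 29.5 CPM, below C24 by -2.76 ± 0.30 (adjusted p = 4.8e-05) and above Ler by 1.20 ± 0.30 (adjusted p = 0.011). Both genes thus lay between the parents, with no overlap with either. The DMR6 call against Ler ended when only the groups compared were fitted (adjusted p = 0.058).

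UGT76B1 was at 0.306, 0.488 and 0.658 CPM in the hybrid, below C24 by -4.92 ± 0.69 (edgeR's quasi-likelihood test, adjusted p = 0.0003). Against Ler its log2 change was -0.47 ± 0.81 (adjusted p = 0.70). That value turned on Ler replicate 1, and without it the hybrid was higher by 1.78 (adjusted p = 0.022). MES9 was at 9.75, 8.92 and 6.25 CPM, between the parents and overlapping neither, with log2 changes of -1.62 ± 0.24 against C24 (adjusted p = 0.00044) and 3.68 ± 0.31 against Ler (adjusted p = 9.5e-06).

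BSMT1 had 0 reads in all 3 hybrid libraries and 285 in the Ler libraries, which is at least 80.0-fold lower when 3 counts are allowed to the hybrid group as a whole (edgeR's quasi-likelihood test, adjusted p = 6.8e-05). C24 had 4 reads, too few to set the hybrid against it. UGT74F1 was at 0.511, 0.634 and 0.752 CPM in the hybrid, below Ler by -1.28 ± 0.41 (adjusted p = 0.033), a call that ended under 7 of 18 alternatives. UGT74F2 ran from 5.26 to 10.7 CPM and UGT71C3 from 1.32 to 1.48. Neither passed against a parent (adjusted p = 0.91 and 0.55 against C24, 0.079 and 0.15 against Ler), and both passed against Ler without TMM scaling (adjusted p = 0.022 and 0.050). UGT74F2 also passed against Ler with DESeq2 (0.042) and without Ler replicate 2 (0.027).

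Against Ler, 3 of 8 members were higher in the hybrid and 2 lower, where 15.8% of all genes were higher and 14.4% lower (30.3% in all). Without TMM scaling 7 members were called, and the split of all genes moved from 3215 higher and 2934 lower to 1698 and 5451. In the same comparison all 7 floral and all 6 tested apex markers were lower in the hybrid, with median log2 changes of -5.46 and -4.50, and 4 of 6 apex markers were lower than in C24. Of the 4 leaf markers, 1 was higher in the hybrid than in Ler, 3 than in C24 and 4 than the mid-parent, and 0 were lower. Their median log2 changes were 0.55, 0.67 and 0.64. The shares of all genes higher in these comparisons were 15.8%, 17.2% and 15.5%. Their part in the members' results was not tested.

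Set against the mid-parent, the mean of the parents on the log scale, 4 of 8 members were lower and 1 higher in the hybrid, where 11.5% of all genes were lower and 15.5% higher (27.1% in all). Without TMM scaling 5 members were again called, but the majority of all genes called turned, from 3156 higher and 2344 lower to 1523 and 6187. DLO1 was at a mean of 1.31 CPM against a geometric mid-parent of 3.74, and DMR6 at 30.7 against 52.9 CPM. The log2 differences were -1.49 ± 0.45 and -0.78 ± 0.26 (edgeR's quasi-likelihood test, adjusted p = 0.029 and 0.042). These calls are near the threshold and ended under 4 of 18 and 8 of 17 alternatives.

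UGT76B1 was below the mid-parent by -2.70 ± 0.68 (edgeR's quasi-likelihood test, adjusted p = 0.013), ending under 2 of 17 alternatives, and BSMT1 was lower with 0 reads in the hybrid (adjusted p = 0.0073). The C24 part of the BSMT1 mid-parent rests on 4 reads, so the size of this fall is uncertain and is not given. MES9 was the member above the mid-parent, at 8.31 CPM against 4.05 and a log2 difference of 1.03 ± 0.23 (adjusted p = 0.008). On the linear scale the picture of MES9 differs, since its arithmetic mid-parent was 13.1 CPM, above the hybrid. Scaling without TMM moved the median log2 change of all genes in the hybrid from -0.04 to -0.28 against C24, from 0.01 to -0.23 against Ler and from -0.01 to -0.25 against the mid-parent, a move of -0.23 each. The directions given for the called members held under it.

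**Figure D4:**
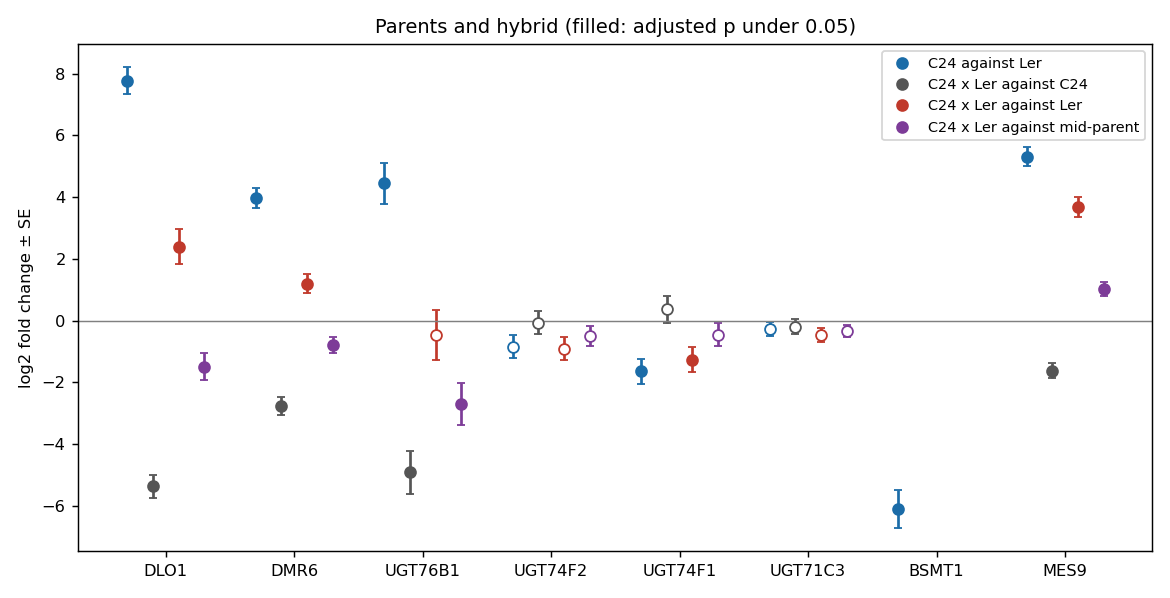
Log2 fold change ± SE of each tested member for C24 against Ler and for the hybrid against C24, Ler and the mid-parent, filled where the adjusted p is under 0.05. DLO1, DMR6 and MES9 of the hybrid lie below C24 and above Ler, MES9 is above the mid-parent, and BSMT1 of the hybrid, with 0 reads, is not drawn.

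Other genes that modify salicylic acid were followed as a list of 9, of which 7 were tested. UGT75B1 had 0 reads in every library and MES4 had 3 in all. In each C24 NahG line 2 of 7 fell and 0 rose, where 7.1% of all genes fell in C24 NahG 2 and 8.16% in C24 NahG 3. SOT12, a sulfotransferase, was at 22.1 ± 2.29 CPM (SD, n = 2) in C24B, 8.46 ± 0.07 in C24 NahG 2 and 7.47 ± 1.94 in C24 NahG 3, with log2 changes of -1.38 and -1.57 (edgeR's quasi-likelihood test, adjusted p = 0.005 and 0.0026). UGT89A2, a glucosyltransferase of dihydroxybenzoic acids, fell by 1.17 and 1.27 (adjusted p = 0.028 and 0.018). The SOT12 call ended under 2 of 11 alternatives in C24 NahG 2, where either library of that line was left out (adjusted p up to 0.065), and under 0 of 11 in C24 NahG 3. The UGT89A2 calls ended under 5 of 11 and 2 of 11 (adjusted p up to 0.23 and 0.12), all of them with 1 library left out. None of the 7 was called in Ler NahG, where 0.59% of all genes were.

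Between the parents 2 of these 7 were higher in C24, MES1 and MES2, and 2 lower, SOT12 and the esterase gene MES7. Of all genes tested, 22.6% were higher in C24 and 19.8% lower. The MES1 call ended under 10 of 17 alternatives (adjusted p up to 0.15), among them no TMM scaling. SOT12 stood against the hydroxylases here, at 11.3 ± 1.47 CPM in C24 and 40.8 ± 10.9 in Ler (n = 3 each, log2 difference -1.86, adjusted p = 1.4e-05). The hybrid was at 40.7 ± 8.60 CPM for SOT12, beside Ler. GH3.5, which joins amino acids to auxin and salicylic acid, was lower in the hybrid than in either parent, at 2.10 ± 0.27 CPM against 21.6 ± 2.46 in C24 and 16.1 ± 7.34 in Ler (adjusted p = 5.3e-05 and 0.00018). In the hybrid 2 of 7 were higher and 3 lower than in C24, 1 higher and 2 lower than in Ler, and 2 higher and 3 lower than the mid-parent. The shares of all genes higher and lower were 17.2% and 19.3% against C24, 15.8% and 14.4% against Ler, and 15.5% and 11.5% against the mid-parent.

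Of the 9 genes of salicylic acid synthesis and export, all tested, 0 were called in Ler NahG, where 0.59% of all genes were. In C24 NahG 2, 2 fell and 1 rose, beside 7.1% and 1.11% of all genes. In C24 NahG 3, 2 fell and 2 rose, beside 8.16% and 2.09%. ICS1, the isochorismate synthase, fell by 1.24 and 1.36 on the log2 scale and PBS3, which conjugates isochorismate to glutamate, by 1.13 and 1.82, whereas EPS1, which acts on the product of PBS3, rose by 0.83 and 0.91 (adjusted p = 0.0051 to 0.039, edgeR's quasi-likelihood test). ICS2, the second isochorismate synthase gene, rose in C24 NahG 3 (log2 change 1.05, adjusted p = 0.03), a call that ended under 5 of 11 alternatives, with any C24 NahG library left out or only the compared groups fitted (adjusted p up to 0.13). The PBS3 call in C24 NahG 2 also ended under 5 of 11, no TMM scaling among them (adjusted p up to 0.11), and the remaining calls of ICS1, PBS3 and EPS1 in the C24 lines under 1 or 2 of 11, each with a library of the compared line left out. These changes were smaller than those of the hydroxylases, a comparison of sizes with no test. Between the parents 3 of 9 were higher in C24 and 4 lower, the former being ICS1, EDS5 and PBS3, beside 22.6% and 19.8% of all genes. The hybrid had 2 higher and 4 lower than C24, 2 higher and 3 lower than Ler, and 1 higher and 3 lower than the mid-parent. Of all genes, 36.6%, 30.3% and 27.1% were called in these 3 comparisons, in either direction.

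Genes with the pattern most like a member's were ranked by the root mean square difference of log2 CPM over 18 libraries, each gene centred on its own mean in each stage, among 7518 genes with a symbol. For DMR6 these were SIB1, HR3 and NIMIN1, with differences of 0.73, 0.73 and 0.79, where DMR6 itself varied by 3.07 around its means. For DLO1 they were RLP23, PNP-A and PAD3 (0.93, 1.00 and 1.11, against 3.12). UGT76B1 was nearest to PR5, PNP-A and ARCK1 (0.81, 0.83 and 0.87, against 2.57).

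MES9 was nearest to SADHU10-1, LUL1 and CYP81D1 (0.40, 0.51 and 0.53, against 1.87). SADHU10-1 averaged 12.7 CPM in C24, 0.40 in Ler, 5.58 in the hybrid and 12.2 in C24B. UGT74F2 was nearest to HO3, ATPMEPCRB and NAC6 (0.70, 0.77 and 0.78, against 1.19), and UGT74F1 to SBT1.3, PEL3 and BCCP2 (0.28, 0.31 and 0.31, against 0.60). BSMT1 had the largest distances to its nearest genes among the members, WSD1, PORA and CER4 at 1.32, 1.35 and 1.49 against its own 2.54. All these distances are descriptions over the same 18 libraries that define the members' patterns.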

How the data were processed

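RNA-seq of rosette tissue was deposited as a table of read counts per gene and library, and the counts deposited by the authors were used as whole numbers for 37336 gene rows in 18 libraries. STAR 2.5.3, the build TAIR10 and DESeq2 are named in the submitters' processing notes, and strand setting and annotation are not given in the sources used here. Rows outside genes, 5 per library with the total, were left out. They held 2.76 to 10.3% unmapped, 1.37 to 2.42% multimapping, 0.256 to 0.523% featureless and 3.47 to 4.85% ambiguous reads.

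Groups came from the labels. The 12 first-stage libraries were fitted together, the 6 later ones together, and the difference of NahG effects in all 18. Genes were kept by filterByExpr (20325, 20112 and 21061), scaled by TMM and tested with edgeR's quasi-likelihood test. The threshold was 0.05 after Benjamini-Hochberg adjustment over all genes, which gives the adjusted p meant throughout unless DESeq2 is named. SE values were derived from that test. CPM used TMM-scaled library sizes within a stage, and RPKM divided them by exon length from the TAIR10.1 annotation. Log levels used a prior count of 2. Replicates are biological by the design text, and counting intervals (95%) and floors (3 counts) cover counting error only. The test was checked on simulated data. The NahG transcript was not analysed here.

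The members and gene lists were chosen with earlier results of these data known. All members are named, at most 3 called genes of a list with the lowest adjusted p in a comparison (MES1 between the parents and ICS2 in C24 NahG 3 fall outside this and were named after their values were seen), and the 3 genes most like each called member, among genes with an average log2 CPM of at least 1. Alternatives were DESeq2, no TMM, no filter, a fit of the compared groups only, a replicate block, leaving out each library, and summing close copies. Software was R 4.3.3, edgeR 4.0.16, limma 3.58.1, DESeq2 1.42.0, Python 3.11.15, numpy 2.4.6, pandas 2.3.3, scipy 1.17.1 and matplotlib 3.10.9.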

Additional observations from a re-analysis of the deposited data

Results flagged for a closer look

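The effect of NahG, taken within each stage, differed between C24 and Ler for 9 of the genes followed, by a test of the difference itself (edgeR's quasi-likelihood test). Of the genes tested, these were 1 of 8 members, 2 of 7 other salicylate-modifying genes and 3 of 9 synthesis and export genes. The rest were 1 of 7 apex markers, 1 of 7 floral markers, 0 of 4 leaf markers and PR1. Of all 21061 genes tested, 8.8% were called. Among the members UGT74F2 differed, with a log2 difference of -2.01 (adjusted p = 0.046), a call that ended under 17 of 24 alternatives. Among the other salicylate-modifying genes SOT12 differed by -1.30 (adjusted p = 0.0088) and UGT89A2 by -1.18 (adjusted p = 0.014), each ending under 1 of 23, without C24B replicate 1 (adjusted p = 0.056 and 0.10). Among the synthesis genes ICS1 differed by -1.40 (adjusted p = 0.0016), a call kept under all 23, PBS3 by -1.74 (adjusted p = 0.022), ending under 3, and EPS1 by 0.79 (adjusted p = 0.036), ending under 10. PR1 differed by -7.85 (adjusted p = 0.00042), kept under all 23. Its controls differed in level, at 12.7 ± 13.7 CPM in Ler and 915 ± 249 in C24B (SD). The apex marker CUC2 differed by 2.54 (adjusted p = 0.022) and the floral organ marker AG by 2.16 (adjusted p = 0.032), ending under 3 and 7 of 23. A negative value means that the gene was lowered more, or raised less, by NahG in C24 than in Ler. The NahG effects in C24 and in Ler come from different sequencing stages, so accession and stage cannot be told apart in these differences.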

How the results depend on the processing

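Of 1151 pairs of a member's result and an alternative, 1086 kept direction and side of the threshold, 42 lost the call, 20 gained it and 3 reversed. Uncalled values that only changed sign count as kept, and there were 24 of these over all genes listed. The reversals were UGT74F1 in C24 NahG 2 (-2.29) and C24 NahG 3 (-2.78) when its reads were summed with those of UGT74F2, and UGT76B1 in the hybrid against Ler without Ler replicate 1 (1.78; -0.985 to 1.78 over the libraries left out). UGT74F2 and UGT74F1 held 796 and 49 reads in C24B, 103 and 84 in C24 NahG 2, and 43 and 87 in C24 NahG 3. With DESeq2 3 members were called in Ler NahG and 2 for the difference between accessions. Without TMM scaling these were 2 and 0, and with only the compared groups fitted the latter was 0. The cause was not tested.

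Genes called moved with DESeq2 to 278 in Ler NahG, 13 between the C24 lines and 2864 for the difference. With no filter they moved to 2504 in C24 NahG 2, 3325 in C24 NahG 3 and 13 between the lines. With only the compared groups they moved to 21 in Ler NahG, 3 between the lines, 3949 for the hybrid against Ler and 930 for the difference.

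On leaving out 1 library in turn, members called ran from 1 to 2 in Ler NahG, 2 to 5 in C24 NahG 2, 4 to 5 in C24 NahG 3, 0 to 0 between the lines, 6 to 7 between the parents, 4 to 4 for the hybrid against C24, 4 to 5 against Ler, 2 to 5 against the mid-parent and 0 to 3 for the difference. Genes called ran in the same order from 45 to 151, 645 to 4268, 611 to 5324, 0 to 4, 7130 to 9131, 5578 to 8261, 3996 to 7608, 2810 to 6771 and 812 to 3533. The highest counts of both C24 lines came without C24B replicate 2, when 2064 genes rose and 2204 fell in C24 NahG 2 and 2506 rose and 2818 fell in C24 NahG 3. A group left with 1 library was assumed to vary like the others of its fit.

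The replicate numbers were not used as pairs in the main fits. Same-numbered libraries of different groups correlated in their deviations from the group means by -0.185 to 0.473 in the first stage (4 of 18 pairs over 0.1). Differently numbered ones gave -0.392 to 0.367 (9 of 36). In the later stage the values were 0.0241 to 0.128 (4 of 6) and -0.128 to -0.0241 (0 of 6). With 2 libraries a group these mirror each other, so they cannot decide whether the later libraries are paired. With a replicate block 114 genes were called in Ler NahG (120 without it), 2294 in C24 NahG 2 (1651) and 3069 in C24 NahG 3 (2062). The only member call that the block ended was UGT74F1 in the hybrid against Ler (adjusted p = 0.056). Depth limits DLO1, UGT76B1 and BSMT1 where a group held few reads.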
